A study of Mus musculus with 12 samples.

Results

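Long noncoding RNAs (lncRNAs) are transcripts that act without being translated, and the brain holds some of the most abundant ones known. The levels of 8 of them, Malat1, Neat1, Meg3, Rian, Mirg, Miat, Snhg11 and Gas5, were followed in mouse brain tissue around a hemorrhage. They were taken by gene symbol from a table of 54833 genes. Of these, 21495 passed the filter on low counts and were tested, all 8 lncRNAs among them.

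The study asked how age changes the response of the brain to intracerebral hemorrhage (ICH). Male wild-type C57BL/6 mice were either young (8-10 weeks) or aged (20-22 months). ICH was induced with type IV collagenase, an enzyme that opens small vessels, and sham mice had the same operation with saline. The caudate putamen around the hematoma on the operated side was taken 24 hours later, and each of the 12 samples (3 sham and 3 ICH samples at each age) pooled tissue from 2 or 3 mice, so P values rest on how pools varied, not individual mice.

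Malat1 is a nuclear RNA that gathers at speckles rich in splicing factors, and Neat1 is the RNA scaffold of paraspeckles, nuclear bodies that form under stress. Meg3, Rian and Mirg are read from the maternal copy of the imprinted Dlk1-Dio3 domain and carry microRNAs (miRNAs) and small nucleolar RNAs (snoRNAs) in their introns and exons. Gas5 and Snhg11 are snoRNA host genes, of which Gas5 has the type of transcription start found in growth-regulated translation genes and Snhg11 is best known from neurons. Miat is a nuclear RNA of neurons that binds splicing factors.

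In the GENCODE annotation of the mouse build GRCm38, which was the build of the deposited table, Malat1 lay at chr19:5795690-5802672 and Neat1 at chr19:5824708-5845478, both on the minus strand and 22035 bases apart. Meg3 (chr12:109541001-109571726), Rian (chr12:109603940-109661716) and Mirg (chr12:109729764-109749460) followed each other on the plus strand, with 32213 bases between Meg3 and Rian and 68047 bases between Rian and Mirg. Miat lay at chr5:112213228-112229395 on the minus strand, Snhg11 at chr2:158375638-158386145 and Gas5 at chr1:161034422-161038539, both of these on the plus strand. The annotation typed Malat1, Neat1, Meg3, Mirg and Miat as long intergenic RNAs, Rian and Gas5 as processed transcripts, and Snhg11 as protein-coding. Inside Mirg the table listed 15 miRNA rows, inside Rian 4 miRNA and 13 snoRNA rows, inside Meg3 2 miRNA rows, inside Gas5 10 snoRNA rows and inside Snhg11 2 snoRNA rows.

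Mirg is shown through the miRNAs it carries, because it was the member of the Dlk1-Dio3 group that passed the test after ICH. In the RefSeq annotation of GRCm38.p6, 14 hairpins with 26 mature miRNAs lay within Mirg, and these 26 held 25 different seeds (bases 2 to 8 of the mature strand, which pair with target RNAs). The only pair that shared a seed heads the list, then both mature strands of miR-541 and miR-3072, whose hairpin rows had the most reads, and of miR-134, a miRNA known from dendrites; the capitals mark the seed and each is written 5′ to 3′.
mmu-miR-453: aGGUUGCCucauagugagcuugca
mmu-miR-496a-5p: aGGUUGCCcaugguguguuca
mmu-miR-541-5p: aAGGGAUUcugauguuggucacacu
mmu-miR-541-3p: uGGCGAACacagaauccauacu
mmu-miR-3072-5p: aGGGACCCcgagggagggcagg
mmu-miR-3072-3p: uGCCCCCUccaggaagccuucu
mmu-miR-134-5p: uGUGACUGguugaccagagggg
mmu-miR-134-3p: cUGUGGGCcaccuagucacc

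Promoter windows of 300 bases (250 before and 50 after a transcription start) were read from RefSeq, GRCm38.p6, for 9 starts of 7 of the lncRNAs, all but Neat1. The word TGACGTCA, the binding motif of the cAMP response element binding protein, was searched on both strands and was present in 588 of 32851 mouse promoters (1.79%) and in 2 of the 9 windows, those of Meg3 and Gas5. These windows are shown because they were the only ones among the 9 with that word; capitals mark TGACGTCA and the TATA words TATAAA or TATATA, which 17.1% of all promoters held. The windows lay on the plus strand, at chr12:109540746-109541045 for Meg3 and at chr1:161034916-161035215 for the second Gas5 start.
Meg3: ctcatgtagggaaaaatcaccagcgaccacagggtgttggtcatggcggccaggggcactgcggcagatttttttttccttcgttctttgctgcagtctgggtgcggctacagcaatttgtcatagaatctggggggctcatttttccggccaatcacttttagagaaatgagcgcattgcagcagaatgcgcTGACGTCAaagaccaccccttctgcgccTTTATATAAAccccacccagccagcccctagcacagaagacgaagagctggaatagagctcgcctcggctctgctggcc
Gas5: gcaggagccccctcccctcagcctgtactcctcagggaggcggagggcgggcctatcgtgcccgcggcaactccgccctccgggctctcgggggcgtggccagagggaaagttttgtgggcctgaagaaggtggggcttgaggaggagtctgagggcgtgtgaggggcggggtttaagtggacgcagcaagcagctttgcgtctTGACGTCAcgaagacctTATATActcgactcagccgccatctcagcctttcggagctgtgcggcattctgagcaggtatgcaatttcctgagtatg
TGACGTCA began at base -57 from the start in Meg3 and at base -46 in Gas5. The shorter word TGACG, which lies on both strands of every TGACGTCA, was also present in the Malat1 window and in 20.8% of all promoters. GGGCGG, the GC box, was present in both Gas5 windows and in that of Miat, against 35.7% of all promoters, and CACGTG was in none of the 9 windows and in 7.15% of all promoters. Such a match describes letters in a window and not a bound site. No data on binding were used.

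Together the 8 lncRNAs took 1.23% to 1.30% of all reads on genes in young sham, 1.47% to 1.69% in young ICH, 1.41% to 1.61% in aged sham and 1.65% to 2.11% in aged ICH. Each sample held 28410896 to 37785160 reads on genes. Sequencing depth therefore did not limit any of the 8, of which the rarest, Mirg, had 866 to 1540 reads per sample. Levels of one gene are given as CPM, its reads scaled to a common library size with TMM factors. Levels of different genes are compared in the deposited FPKM, which is also divided by length. For each of the 8 that length was all annotated exons of the gene together, so the order between genes depends on the annotated isoforms. Genes of striatal projection neurons, the neurons that define the caudate putamen, had reads in every group. Red blood cell genes (5) had a summed 5.20 to 39.5 CPM in the sham samples and 24.3 to 121 CPM in the ICH samples.

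On the per-length scale, Snhg11 (mean of all 12 samples 441 FPKM), Meg3 (431 FPKM) and Malat1 (339 FPKM) were at ranks 29, 30 and 43 of the 54833 genes. Miat (57.4 FPKM, rank 590), Rian (43.0 FPKM, rank 900), Gas5 (22.4 FPKM, rank 2110) and Neat1 (15.9 FPKM, rank 3131) followed. Mirg, at 4.97 FPKM, was at rank 8396, so beside all genes the word abundant does not describe it. Among the 12841 genes that the annotation typed as lncRNAs it was at rank 191. In young sham the order was Meg3, Snhg11, Malat1, Miat, Rian, Gas5, Neat1 and Mirg, and all neighbours in it were apart except Miat and Rian, whose 3 samples each overlapped. In the other groups Snhg11 had the highest mean but overlapped with Meg3, and overlap was also found between Gas5 and Neat1 in young ICH, Miat and Rian in aged sham, and Meg3 and Malat1 in aged ICH. The FPKM of Neat1 divides by all 20771 bases of the gene, so it averages over its short and long isoforms.

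The comparisons asked which lncRNAs ICH changed at each age, which differed with age, and whether age changed the ICH response. A gene was called by either of 2 rules, as a differentially expressed gene (DEG) by FC over 1.5 or under 0.67 with unadjusted P under 0.05, or by an adjusted P under 0.05 with no limit on FC (edgeR quasi-likelihood test, Benjamini-Hochberg over 21495 genes). In young ICH vs. young sham, 1 of the 8 lncRNAs was a DEG (12.2% of all genes tested) and 2 had an adjusted P under 0.05 (19.1% of all genes). An unadjusted P under 0.05 was found for 3 (33.2% of all genes). In aged ICH vs. aged sham, 0 were DEGs (10.1% of all genes) and 2 had an adjusted P under 0.05 (13.2% of all genes). There 6 had an unadjusted P under 0.05 (28.9% of all genes), among them Miat just at the threshold (edgeR, unadjusted P = 0.0499975). In aged sham vs. young sham, 1 was a DEG (3.72%) and 0 had an adjusted P under 0.05 by edgeR (0.102%), although DESeq2 called 1. By unadjusted P under 0.05 there were 3 (12.3% of all genes). In aged ICH vs. young ICH, 0 were DEGs (3.52%) and 0 had an adjusted P under 0.05 (0.0558%) by edgeR or DESeq2. By unadjusted P under 0.05 there were 2 (9.54% of all genes). The interaction of age and ICH called 0 lncRNAs by either rule, against 1.56% of genes by the DEG rule and 0% by adjusted P. None of the 8 had an unadjusted P under 0.05 (2.82% of all genes), and DESeq2 also called 0.

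Most of the lncRNAs had higher mean values after ICH at both ages, by less than the DEG limit except for Neat1 in young mice. In young mice 7 of 8 had a log2FC above 0 (52.7% of all genes), with a median of 0.27 against 0.022 for all genes. In 5 of 8 the ICH and sham samples did not overlap (35% of all genes). In aged mice 7 of 8 were above 0 (50.3% of all genes), with a median of 0.36 against 0.0018 for all genes. Of the 8, 4 did not overlap (35.1% of all genes), 1 of them Rian with the lower ICH values. For aged sham vs. young sham the median was 0.17 against 0.0089, and 5 of 8 did not overlap (21% of all genes). For aged ICH vs. young ICH it was 0.19 against -0.0046, and 2 of 8 did not overlap (13.3% of all genes). All 4 comparisons share groups with each other, so these counts are not independent.

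**Figure D1:**
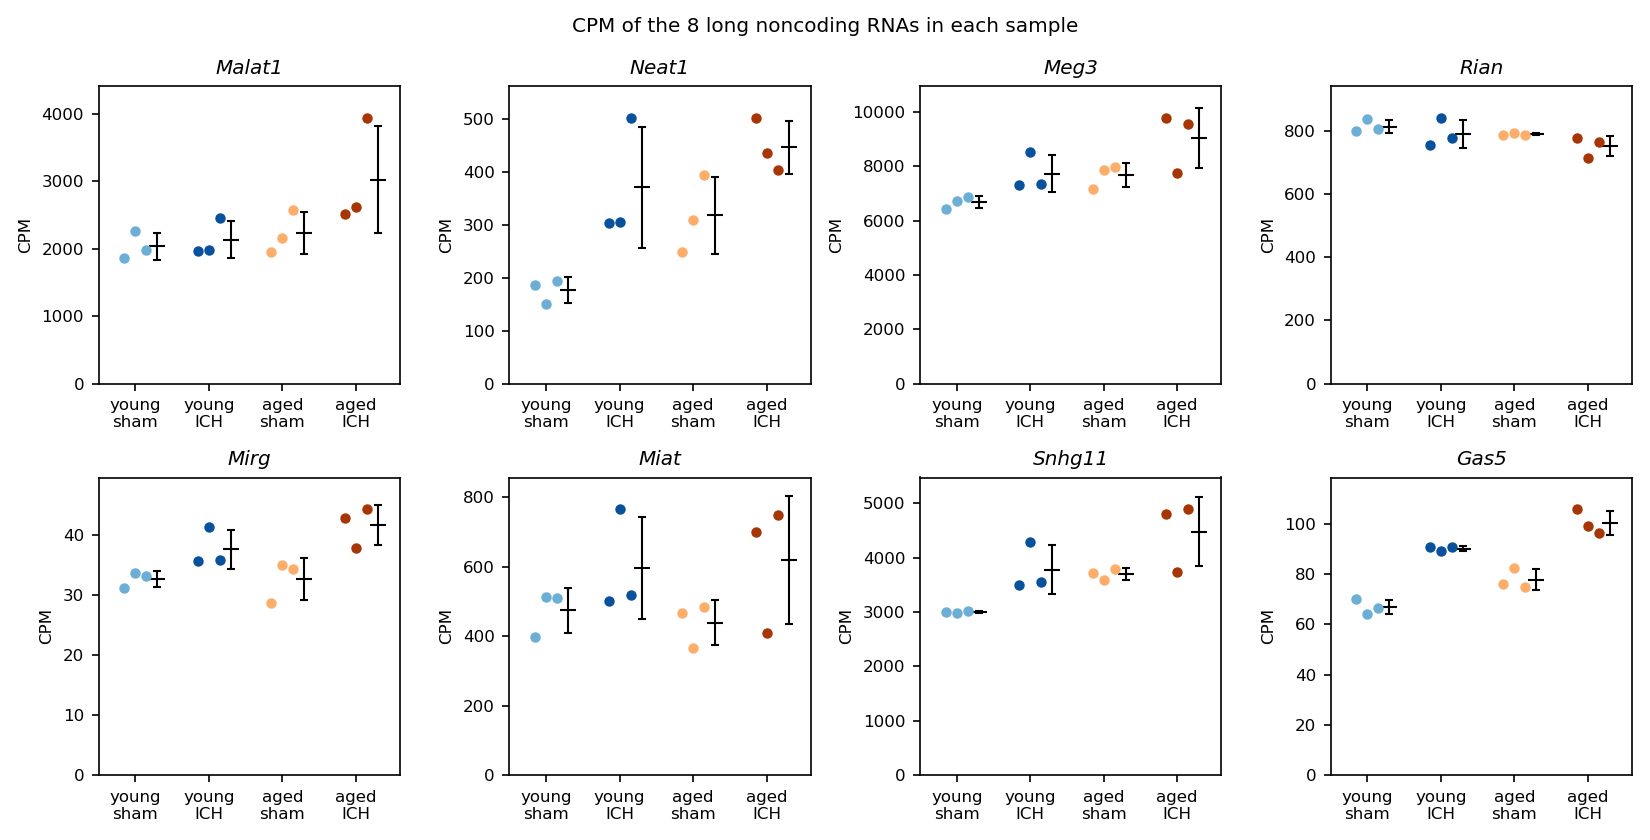
CPM of each lncRNA (vertical axes, linear and starting at 0) in the 3 sham and 3 ICH samples of each age. Dots are samples, and the bars beside them give the mean ± SD (n = 3). Gas5 and Neat1 stand above their sham samples after ICH in both ages, Rian lies between 714 and 840.1 CPM, and Malat1 in aged ICH holds 1 sample at 3943 CPM.

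**Figure D2:**
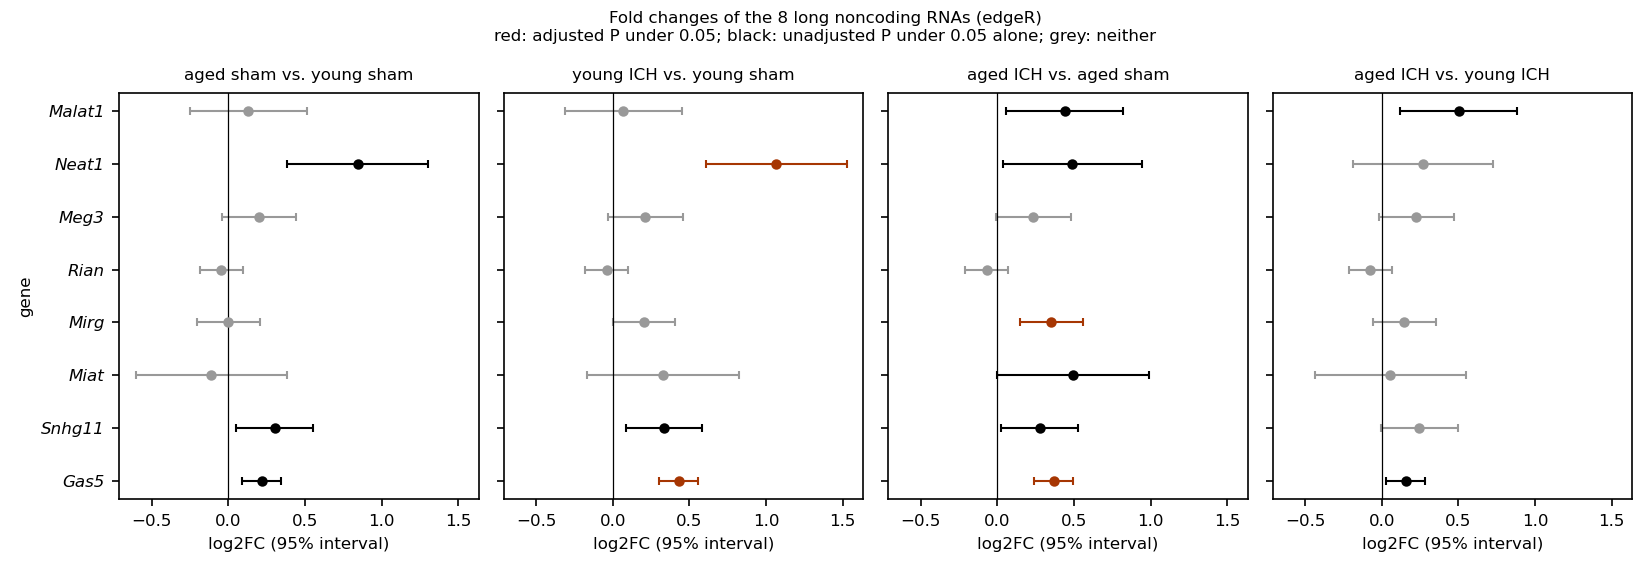
Fold changes (log2FC, horizontal axes, with 95% intervals) of the 8 lncRNAs in the 4 comparisons. Red marks an adjusted P under 0.05, black an unadjusted P under 0.05 alone and grey neither; red are Neat1 and Gas5 in young ICH vs. young sham, and Mirg and Gas5 in aged ICH vs. aged sham.

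The paraspeckle RNA Neat1 was the only lncRNA of the 8 to reach the DEG criterion after ICH, and it did so in young mice. Its young sham samples had 187, 149 and 194 CPM, and its young ICH samples 304, 305 and 502 CPM. Every ICH sample was above every sham sample, and 1 ICH sample stood well above the other two. The FC was 2.09 (95% interval 1.52 to 2.88; log2FC 1.07 ± 0.21 SE; edgeR, adjusted P = 0.00621). Without the young ICH sample at 502 CPM the log2FC was 0.78 (edgeR, adjusted P = 0.0172).

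The aged sham samples had 249, 309 and 394 CPM, all above the young sham samples. Neat1 was a DEG between them, with an FC of 1.80 and a log2FC of 0.84 ± 0.21 (edgeR, unadjusted P = 0.00178). The adjusted P was 0.186 in edgeR and 0.00859 in DESeq2. The aged ICH samples had 501, 434 and 402 CPM. They did not overlap with aged sham, but the log2FC of 0.49 ± 0.21 missed the adjusted threshold (edgeR, adjusted P = 0.145), with a 95% interval of the FC from 1.02 to 1.93. The interaction, as the log2FC of ICH in aged mice less the log2FC in young mice, was -0.58 ± 0.29 (edgeR, unadjusted P = 0.0746), which passed neither rule. This value rested on single samples: it was -0.29 without young ICH 3 (edgeR, unadjusted P = 0.226). It met the DEG criterion, at -0.72, -0.70 and -0.69, without aged sham 1, young ICH 1 or young ICH 2 (edgeR, unadjusted P = 0.0301, 0.0410 and 0.0430), with adjusted P values of at least 0.862. Aged ICH and young ICH overlapped, with a log2FC of 0.27 (edgeR, adjusted P = 0.722).

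Marker genes of other cell types changed in the same comparisons as Neat1. By adjusted P, 19.1% of all genes passed in young ICH vs. young sham and 13.2% in aged ICH vs. aged sham. Of 9 monocyte and macrophage genes, 6 rose by adjusted P in each ICH comparison, and their summed CPM ran from 64.5 to 70.4 in young sham, 125 to 176 in young ICH, 66.7 to 119 in aged sham and 170 to 187 in aged ICH. The summed CPM of 10 neutrophil genes (9 tested) ran from 11.3 to 13.9 in young sham, 22.1 to 40.1 in young ICH, 16.2 to 27.6 in aged sham and 40.7 to 57.1 in aged ICH, and 7 and 6 of the 9 rose by adjusted P in young and aged mice. The 3 samples with the most Neat1, young ICH 3, aged ICH 1 and aged ICH 2, were also the 3 with the most choroid plexus RNA, at a summed CPM over 7 genes of 4083, 1559 and 1979 against 9.95 to 490.4 in the other 9. In young ICH samples 1 and 2 the choroid plexus sum was 55.5 and 9.95, within or below the young sham range of 53.8 to 490.4, while Neat1 was above all young sham samples. Of 7 astrocyte genes, 4 rose by adjusted P in young ICH, and 3 rose and 1 fell in aged ICH. Of 7 endothelial genes, 5 rose and 1 fell in young ICH, and 3 rose and 1 fell in aged ICH. Of 7 oligodendrocyte genes, 3 fell in aged ICH and none passed in young ICH, and 2 of 7 microglia genes fell at each age. What any of these cell types contributed to the Neat1 values was not tested. In these bulk samples fewer or more cells of a type and less or more RNA per cell cannot be told apart.

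Malat1, the neighbour of Neat1, passed in none of the 4 comparisons. It had 1864, 2264 and 1979 CPM in young sham and 1973, 1982 and 2453 CPM in young ICH, so the groups overlapped. The FC was 1.05 with a 95% interval from 0.807 to 1.36 (edgeR, adjusted P = 0.816). In aged sham it had 1957, 2163 and 2570 CPM and in aged ICH 2516, 2614 and 3943 CPM, again overlapping, with a log2FC of 0.44 ± 0.17 (edgeR, adjusted P = 0.119). The sample at 3943 CPM carried much of that difference, and without it the log2FC was 0.20 (edgeR, adjusted P = 0.427). Aged ICH was above young ICH in every sample, with a log2FC of 0.50 ± 0.17 (edgeR, unadjusted P = 0.0141, adjusted P = 0.401) or 0.26 without the sample at 3943 CPM. It met the DEG criterion without aged ICH 1 (0.62), aged ICH 2 (0.60) or young ICH 3 (0.61), where the adjusted P in edgeR was 0.562, 0.2975 and 0.229. In aged sham vs. young sham Malat1 had an FC of 1.10 (95% interval 0.842 to 1.42).

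Neat1 was also expressed per 1000 reads of Malat1, a ratio within each sample that needs no scaling and that was chosen after these values were seen. It was 100.1, 66.0 and 98.2 in young sham and 154, 154 and 205 in young ICH, a ratio of the means of 1.94. In aged sham it was 127, 143 and 153, above young sham in every sample. In aged ICH it was 199, 166 and 102, and so both below and above aged sham. The exact permutation P of 3 against 3 samples was 0.1 for young ICH vs. young sham and for aged sham vs. young sham, the smallest such a design can give, and 0.8 for aged ICH vs. aged sham. Without aged ICH sample 3, the sample with the most Malat1, the aged ICH mean was 183 rather than 156.

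The RNAs that encode protein partners of these nuclear bodies were also followed. Of 18 tested genes for proteins of paraspeckles and speckles, 1 rose by adjusted P in young ICH (19.1% of all genes passed). In aged ICH 1 rose and 1 fell (13.2% of all genes passed). The medians were -0.056 and -0.043 against 0.022 and 0.0018 for all genes. Srsf2, a splicing factor of speckles, was the one that rose, by a log2FC of 0.40 ± 0.05 in young mice (edgeR, adjusted P = 0.00166) and 0.27 ± 0.05 in aged mice (edgeR, adjusted P = 0.0114). Nudt21, a cleavage factor for polyadenylation, fell in aged mice (log2FC -0.27; edgeR, adjusted P = 0.0233). Across the 12 samples the genes whose log2 CPM followed Neat1 most closely were Tcf12 (Pearson r = 0.98), Stom (r = 0.97) and Arap1 (r = 0.97), while for Malat1 the closest gene, Gm28438, reached r = 0.89. These r values describe samples that fall into 4 groups, and the genes were picked as the highest of all genes tested.

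The imprinted lncRNAs Meg3, Rian and Mirg lie in tandem, and of them Mirg alone passed after ICH. Rian varied least of the 8 across the samples. It had 798, 835 and 805 CPM in young sham, 756, 840.1 and 775 CPM in young ICH, 786, 791 and 786 CPM in aged sham, and 776, 714 and 762 CPM in aged ICH. The 95% intervals of its FC ran from 0.883 to 1.07 for ICH in young mice, 0.865 to 1.05 for ICH in aged mice and 0.881 to 1.07 for age in sham mice. The adjusted P values were 0.702, 0.510 and 0.822 (edgeR). Aged ICH lay below aged sham, and aged sham below young sham, in every sample, but the sign of the ICH difference depended on the scaling, since with library size alone the log2FC was 0.049 in young and 0.0011 in aged mice.

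Meg3, by reads the most abundant of the 8, had 6447, 6719 and 6869 CPM in young sham and 7323, 8523 and 7357 CPM in young ICH. These groups did not overlap, but the log2FC of 0.21 ± 0.11 did not pass (edgeR, adjusted P = 0.210; 95% interval of the FC 0.978 to 1.37). In aged sham it had 7176, 7863 and 7983 CPM and in aged ICH 9786, 7774 and 9554 CPM, with a log2FC of 0.24 ± 0.11 (edgeR, adjusted P = 0.188). The lowest aged ICH sample fell within the aged sham range. Its closest genes over the 12 samples were Evc (r = 0.97), Pias3 (r = 0.97) and another of the 8 lncRNAs, Snhg11 (r = 0.97).

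Mirg had 31.2, 33.7 and 33.2 CPM in young sham and 35.6, 41.4 and 36.0 CPM in young ICH, with a log2FC of 0.20 ± 0.09 (edgeR, adjusted P = 0.152). In aged sham it had 28.7, 35.0 and 34.3 CPM and in aged ICH 42.9, 37.9 and 44.3 CPM. Neither comparison overlapped, and in aged mice the rise passed, with an FC of 1.28 (95% interval 1.11 to 1.47; log2FC 0.35 ± 0.09; edgeR, adjusted P = 0.0310). That call was lost without aged ICH sample 1, aged ICH sample 3 or aged sham sample 1, when the adjusted P was 0.113, 0.1085 and 0.115, and when the fit held the compared groups alone. Between aged sham and young sham the log2FC of Mirg was 0.00016 (95% interval of the FC 0.867 to 1.15). The ICH responses of the 2 ages differed by 0.15 ± 0.13 (edgeR, unadjusted P = 0.286), so a response of Mirg limited to aged mice was not shown.

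The 3 tandem lncRNAs were also set against each other within each sample. Mirg had 39.1, 40.3 and 41.3 reads per 1000 Rian reads in young sham, 47.2, 49.2 and 46.4 in young ICH, 36.5, 44.3 and 43.7 in aged sham, and 55.3, 53.1 and 58.2 in aged ICH. Every ICH sample was above every sham sample of its age, by a ratio of means of 1.18 in young and 1.34 in aged mice, and every aged ICH sample was above every young ICH sample. Rian per 1000 Meg3 reads went the other way, from 124, 124 and 117 in young sham to 103, 98.6 and 105 in young ICH, and from 110, 101 and 98.5 in aged sham to 79.3, 91.8 and 79.8 in aged ICH. No 2 compared groups overlapped in this ratio in any of the 4 comparisons. The exact permutation P was 0.1 in each case without overlap, the smallest that 3 against 3 samples can give, and these ratios too were chosen after the values were seen.

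**Figure D3:**
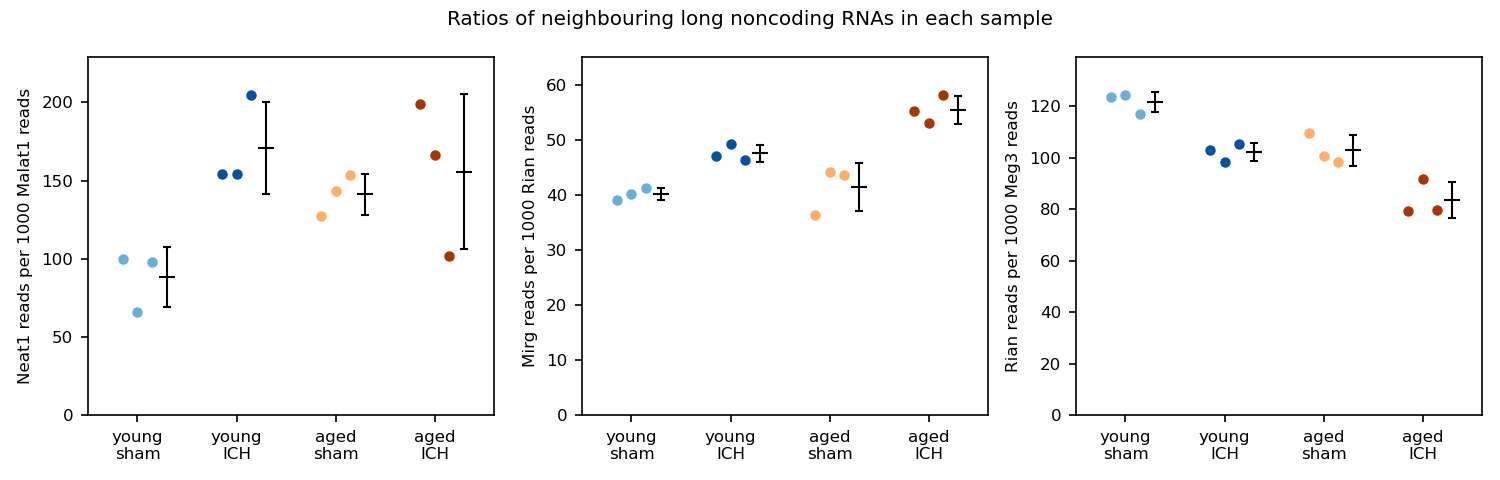
Reads of one lncRNA per 1000 reads of its neighbour in each sample (vertical axes start at 0; dots are samples, bars the mean ± SD, n = 3). Neat1 per Malat1 lies at 66.0 to 100.1 in young sham and at 154 to 205 in young ICH, Mirg per Rian is highest in aged ICH (53.1 to 58.2), and Rian per Meg3 is lowest there (79.3 to 91.8).

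A further lncRNA of the same strand, B830012L14Rik, lies between Rian and Mirg at chr12:109695586-109702587, which is 33869 bases after Rian and 27176 bases before Mirg. It was rare, with 31 to 83 reads per sample, but it was a DEG in both ICH comparisons. It had 0.857, 1.27 and 1.06 CPM in young sham and 1.94, 1.86 and 2.02 CPM in young ICH (log2FC 0.87 ± 0.20; edgeR, adjusted P = 0.0117). In aged mice it went from 1.13, 1.11 and 1.59 CPM to 2.31, 2.10 and 2.11 CPM (log2FC 0.76 ± 0.19; edgeR, adjusted P = 0.0260). Of the 8 tested genes in or beside the domain other than the 3 lncRNAs, it was the only one that rose by adjusted P at either age. Ppp2r5c, a phosphatase subunit beyond the domain, fell in young (log2FC -0.185; edgeR, adjusted P = 0.0361) and aged mice (log2FC -0.23; edgeR, adjusted P = 0.0193).

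The miRNA rows inside Mirg held few reads in these libraries, which were not made to capture mature miRNAs. Of 15 rows, 9 had a read, 1193 reads in all against 13930 for Mirg itself. The hairpin of miR-3072 had 90 reads over the 3 young sham samples, 79 in young ICH, 63 in aged sham and 105 in aged ICH (aged ICH vs. aged sham log2FC 0.67; edgeR, adjusted P = 0.133). The hairpin of miR-541 had 83, 86, 68 and 80 reads in the same order (log2FC 0.18 in aged mice; edgeR, adjusted P = 0.684), and that of miR-453 had 49, 55, 52 and 55 (log2FC 0.037; edgeR, adjusted P = 0.959). The row of miR-134 held 0 reads. Mature miRNA levels were not measured.

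Inside Rian, 8 of 17 miRNA and snoRNA rows had reads, 2531 in all against 302146 for Rian itself. The snoRNA row DQ267102 passed in aged mice although Rian did not: it had 73 reads over the 3 young sham samples, 96 in young ICH, 66 in aged sham and 134 in aged ICH. Its log2FC was 0.94 in aged mice (edgeR, adjusted P = 0.0133) and 0.42 in young mice (edgeR, adjusted P = 0.173). The snoRNA row with the most reads, Gm23600, had 215, 207, 300 and 260 reads in the same order (log2FC -0.25 in aged mice; edgeR, adjusted P = 0.617). The 2 miRNA rows inside Meg3 held 0 reads.

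Gas5 had the smallest P of the 8 in both ICH comparisons. Its young sham samples had 70.0, 64.3 and 66.6 CPM and its young ICH samples 90.8, 89.2 and 90.7 CPM. The groups were well apart, with an FC of 1.35 (95% interval 1.23 to 1.47; log2FC 0.43 ± 0.06; edgeR, adjusted P = 0.00161). The aged sham samples had 76.3, 82.5 and 75.0 CPM and the aged ICH samples 105.9, 99.1 and 96.5 CPM, an FC of 1.29 (95% interval 1.18 to 1.41; log2FC 0.37 ± 0.06; edgeR, adjusted P = 0.00526). It kept an adjusted P under 0.05 under each of the 13 alternatives at both ages, at most 0.0115 in young and 0.0299 in aged mice, yet its FC was under 1.5 and it was no DEG.

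With age alone Gas5 was higher by a log2FC of 0.22 ± 0.06 in sham mice and 0.16 ± 0.06 in ICH mice. In both comparisons every aged sample was above every young one, at an unadjusted P of 0.00278 and 0.0199 (edgeR) and an adjusted P of 0.200 and 0.437. The ICH responses of the 2 ages differed by -0.063 ± 0.082 (edgeR, unadjusted P = 0.453). Zbtb37, a zinc finger gene, overlaps Gas5 on the opposite strand, and since the sources used here do not give the strand setting of the counting, reads in the overlap cannot be told apart. Zbtb37 had a log2FC of -0.67 in young ICH (edgeR, adjusted P = 0.0197) and -0.40 in aged ICH (edgeR, adjusted P = 0.145).

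The genes whose profile was most like that of Gas5 over the 12 samples were the ribosomal protein genes Rpl14, Rpl19 and Rps19 (each r = 0.98). Of 10 translation genes that share its type of transcription start, 6 rose by adjusted P in young mice (19.1% of all genes passed). In aged mice 6 rose (13.2% of all genes passed). The medians were 0.23 and 0.27, with all 10 above 0 at both ages. Eef1d, a subunit of the elongation factor that reloads Eef1a, had a log2FC of 0.35 ± 0.06 in young mice (edgeR, adjusted P = 0.00274) and 0.31 ± 0.06 in aged mice (edgeR, adjusted P = 0.00791). Rack1, a protein of the small ribosomal subunit, had 0.32 and 0.41 (edgeR, adjusted P = 0.0126 and 0.00715). In aged sham vs. young sham these 10 had a median of 0.0028, against 0.22 for Gas5. Neither Gas5 nor any of the 10 passed by adjusted P there (0.102% of all genes passed).

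Several other snoRNA host genes also rose after ICH. Of the 14 tested, 5 rose and none fell by adjusted P in young mice (19.1% of all genes passed). In aged mice 4 rose and none fell (13.2% of all genes passed). The medians were 0.38 and 0.31 against 0.022 and 0.0018 for all genes. Snhg1 had a log2FC of 0.60 ± 0.11 in young (edgeR, adjusted P = 0.00401) and 0.58 ± 0.11 in aged mice (edgeR, adjusted P = 0.00800). Zfas1 had 0.58 and 0.42 (edgeR, adjusted P = 0.00526 and 0.0302), and Snhg5 had 0.52 and 0.33 (edgeR, adjusted P = 0.00326 and 0.0283). Snhg12 and Snhg17 passed in young mice alone and Snhg15 in aged mice alone, but the interaction had an unadjusted P above 0.05 in all 14. In aged sham vs. young sham the 14 had a median of 0.18, against 0.0089 for all genes. There 13 were above 0 and none passed by adjusted P. The 10 snoRNA rows inside Gas5 held 0 reads in all 12 samples, so the snoRNAs themselves were not measured.

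**Figure D4:**
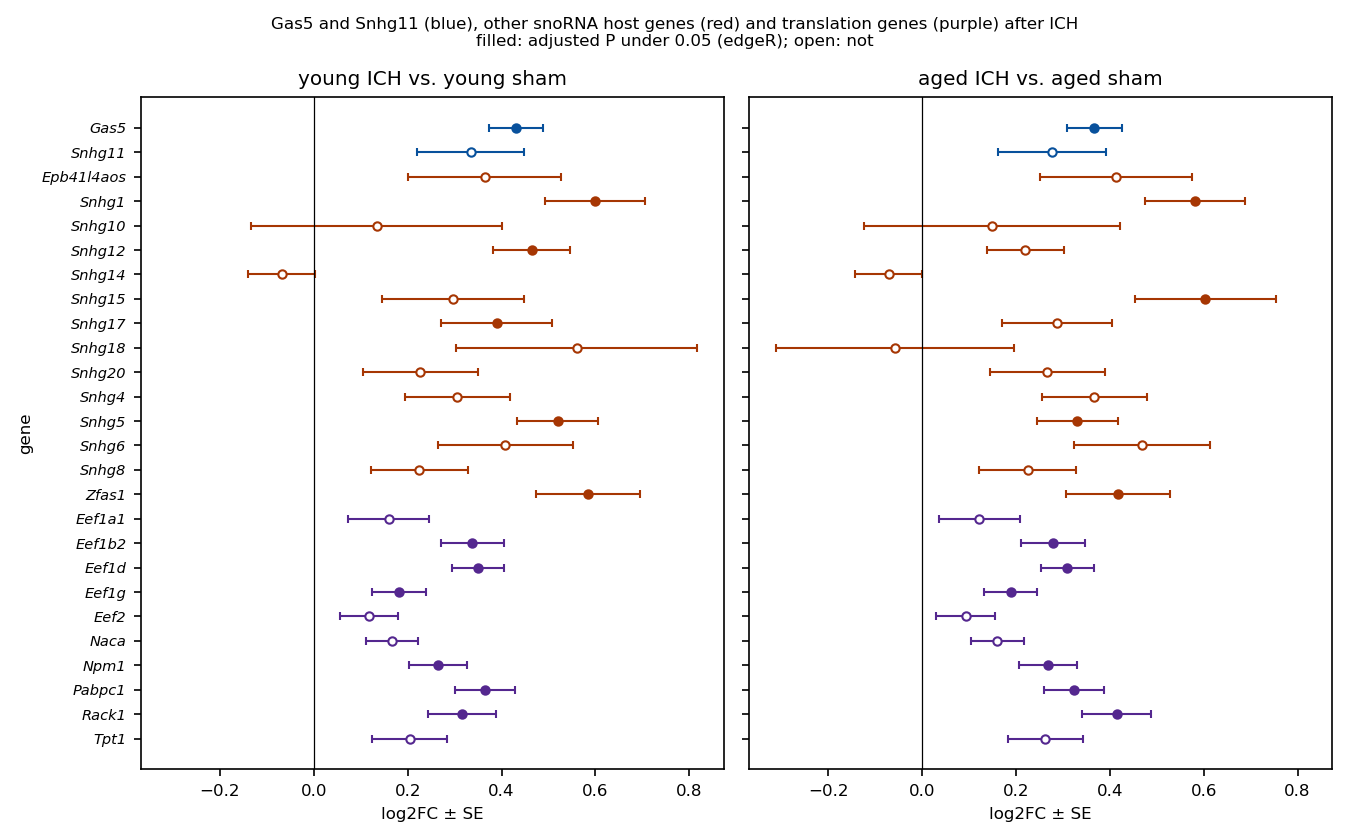
log2FC ± SE (horizontal axes) of Gas5 and Snhg11 (blue), 14 other snoRNA host genes (red) and 10 translation genes (purple) in young ICH vs. young sham and aged ICH vs. aged sham. Filled dots have an adjusted P under 0.05 by edgeR; 5 and 4 of the red and 6 and 6 of the purple dots are filled, and Gas5 is filled in both panels.

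Snhg11 is a host gene too, but it was far higher than Gas5 and its samples varied in another way. It had 3001, 2986 and 3015 CPM in young sham and 3494, 4294 and 3560 CPM in young ICH. The young sham samples were within 0.484% of their mean (SD), and every ICH sample was higher, with an FC of 1.26 (log2FC 0.33 ± 0.11; edgeR, unadjusted P = 0.0133, adjusted P = 0.0623). In aged sham it had 3726, 3585 and 3789 CPM, above every young sham sample (log2FC 0.30 ± 0.11; edgeR, unadjusted P = 0.0221, adjusted P = 0.324). In aged ICH it had 4811, 3745 and 4891 CPM, 1 of them within the aged sham range, with a log2FC of 0.28 ± 0.11 (edgeR, adjusted P = 0.135). The snoRNA row inside it that held reads, Gm25129, had 622 and 658 reads in young sham and young ICH, 658 and 807 in aged sham and aged ICH, and did not pass (edgeR, adjusted P = 0.687 in young and 0.396 in aged ICH). Its most similar genes were Mbip, Snhg17 and Ddb2 (each r = 0.97).

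Miat was the most variable of the neuronal lncRNAs. It had 398, 513 and 510.3 CPM in young sham and 502, 765 and 518 CPM in young ICH, which overlapped (log2FC 0.33 ± 0.23; edgeR, adjusted P = 0.339). In aged sham it had 467, 365 and 485 CPM and in aged ICH 700.1, 408 and 748 CPM. The aged ICH samples fell on both sides of a gap, with 1 inside the aged sham range, and the log2FC of 0.50 ± 0.23 did not pass (edgeR, adjusted P = 0.173). Without the aged ICH sample at 408 CPM, Miat had a log2FC of 0.72 and passed both rules (edgeR, adjusted P = 0.0294). It fell to 0.40 without aged ICH 1 and 0.34 without aged ICH 3 (edgeR, adjusted P = 0.416 and 0.442). In young mice the log2FC of Miat ran from 0.11 to 0.44 without single samples. With all samples, the 95% interval of the FC ran from 0.892 to 1.77 in young mice and reached 1.99 in aged mice. Antisense to Miat, Gm26953 had 282 reads in all and did not pass in any of the 4 comparisons. Genes like Miat were Sept9 (r = 0.96) and Tmem145 (r = 0.95).

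Several lncRNAs were highest in the ICH samples with the least RNA of striatal genes. The summed CPM of 11 genes of striatal projection neurons, the main neurons of the caudate putamen, was lowest in aged ICH 1 (522), young ICH 2 (758) and aged ICH 3 (999), and ran from 1519 to 3510.3 in the other 9 samples. All 11 of these genes had reads in every group, and all 11 had a log2FC below 0 in each ICH comparison. The medians were -0.94 in young and -1.10 in aged mice. However, 1 of 11 passed the adjusted threshold in each, against 19.1% of all genes in young and 13.2% in aged mice. In the 3 samples named, Miat had 700.1, 765 and 748 CPM against 365 to 518 in the other 9. Snhg11 had 4811, 4294 and 4891 CPM there, against 2986 to 3789. Meg3 had 9786, 8523 and 9554 CPM against 6447 to 7983, and Mirg 42.9, 41.4 and 44.3 CPM against 28.7 to 37.9. For Malat1, Neat1, Rian and Gas5 the 3 samples overlapped with the rest. The part of these striatal values in the lncRNA levels was not tested, and a difference in the share of striatum in the tissue cannot be told apart from a loss of striatal RNA.

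**Figure D5:**
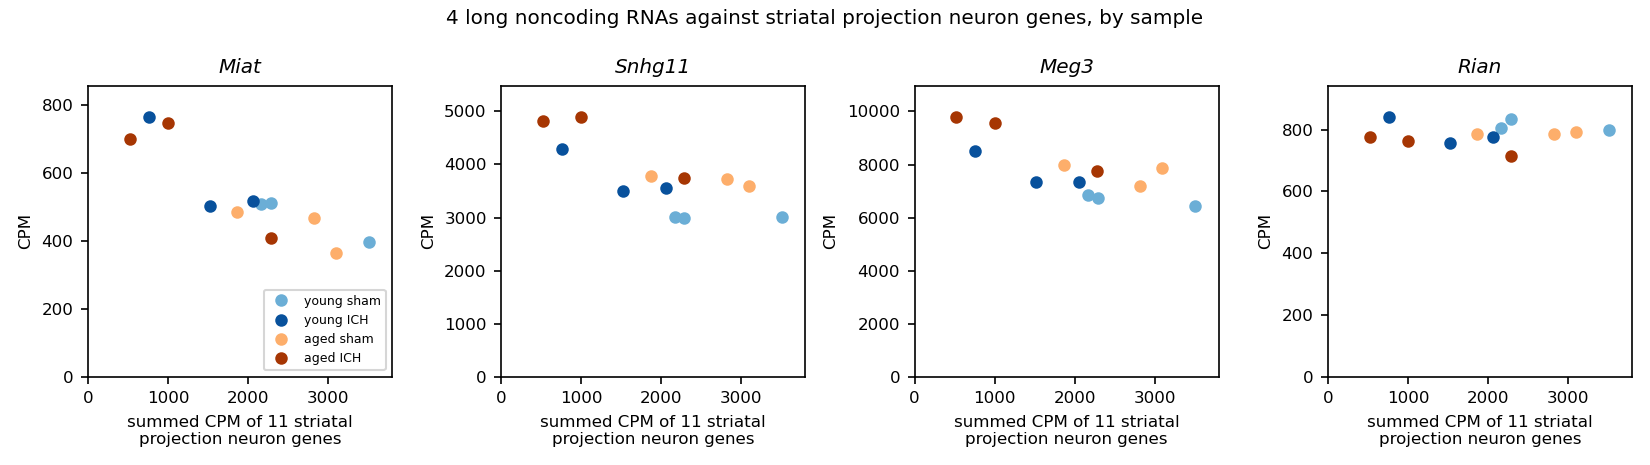
CPM of Miat, Snhg11, Meg3 and Rian (vertical axes, from 0) against the summed CPM of 11 striatal projection neuron genes (horizontal axes, from 0), 1 dot per sample, coloured by group. The 3 ICH samples below 1519 on the horizontal axis hold the highest values of Miat, Snhg11 and Meg3, whereas Rian there lies among the other samples.

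As several of the lncRNAs are neuronal, each was also set against 10 general neuronal genes in the same sample. Of these 10, 3 fell by adjusted P in young ICH (19.1% of all genes passed). None fell by adjusted P in aged ICH (13.2% of all genes passed), where 10 of 10 had a log2FC below 0. The mean log2 CPM of these 10 was lower by 0.26 in young ICH than in young sham, with overlap, and by 0.19 in aged ICH than in aged sham, without overlap. The lncRNAs relative to this mean were higher after ICH and did not overlap in 6 of 8 in young mice (36% of all genes) and 7 of 8 in aged mice (41.9% of all genes). For age, 4 of 8 did not overlap in sham mice (24.5% of all genes) and 3 of 8 in ICH mice (10.2% of all genes), all higher in aged mice. These counts depended on the reference: against striatal genes 7 of 8 did not overlap for ICH in young mice, but 1 of 8 for ICH in aged mice and 0 of 8 in both comparisons of age. Snhg11 relative to neuronal genes was higher by 0.59 in young and 0.46 in aged ICH, and Meg3 by 0.47 and 0.42, each with an exact permutation P of 0.1. Rian, flat in CPM, was higher by 0.22 in young ICH, with overlap (exact permutation P = 0.2), and by 0.12 in aged ICH, without overlap (exact permutation P = 0.1).

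Other lncRNAs known from brain gave a mixed picture beside these 8. Of 19 tested, 2 rose and 2 fell by adjusted P in young ICH (19.1% of all genes passed). In aged ICH none rose and 4 fell (13.2% of all genes passed). The medians were 0.071 at both ages. Peg13, an imprinted neuronal transcript, fell from 341 to 378 CPM in young sham to 218 to 302 CPM in young ICH (log2FC -0.48 ± 0.11; edgeR, adjusted P = 0.0142) and fell by 0.46 on the log2 scale in aged mice (edgeR, adjusted P = 0.0237). Tug1, another abundant nuclear lncRNA, had -0.21 and -0.28 (edgeR, adjusted P = 0.0453 and 0.0192). H19, the imprinted fetal lncRNA, and Mir17hg, the host of a miRNA cluster of dividing cells, rose in young ICH by a log2FC of 2.22 ± 0.50 and 1.33 ± 0.28 (edgeR, adjusted P = 0.0111 and 0.00890). In aged ICH they had 1.40 and 0.72, which met the DEG criterion but not the adjusted threshold (edgeR, adjusted P = 0.156 and 0.107). Both were rare, with H19 at most 1.99 CPM in any sample.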

How the data were processed

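Per the labels and the methods of the study, libraries were made from TRIzol-extracted total RNA with the NEBNext Ultra RNA kit, and paired-end reads were aligned to GRCm38.p6 with HISAT2. With featureCounts the authors made gene counts, and deposited these raw counts with FPKM for 54833 genes in all 12 samples. The strand setting and any selection of polyadenylated RNA are not given in the sources used here. Samples were grouped by title.

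The deposited counts were tested with edgeR 4.0.16 (R 4.3.3; TMM, filterByExpr with a minimum count of 10, quasi-likelihood test, all 12 samples in 1 fit, Benjamini-Hochberg adjustment), which was tested on simulated data. CPM used TMM-scaled library sizes, and log2 CPM a prior count of 2. Values relative to neuronal genes and ratios used the exact two-sided permutation test, which cannot go below 0.1 with 3 against 3 samples. Alternatives were DESeq2 1.42.0 (the tool of the study), limma 3.58.1 on log2(FPKM + 1) of the deposited FPKM, RLE or library-size scaling, no filter, the compared groups alone, the replicate number as a block, a prior count of 0.5, striatal genes as reference, and leaving out each sample. Sequences were handled with Python 3.11.15.

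The text names all 8 lncRNAs, up to 4 called genes per list and comparison by smallest P, and genes inside or overlapping a lncRNA. It also names up to 3 of the genes most correlated with a lncRNA over the 12 samples. For Malat1 only the closest is named, and for Rian and Mirg none. Snhg17 among the host genes was added after its values were seen. One correlated gene is not reported here. The lncRNAs and lists were chosen with earlier results of these data known. The host genes Snhg7 and Snhg16 and the lncRNA Oip5os1 had no row under these symbols and were not analysed here.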

Additional observations from a re-analysis of the deposited data

How the results depend on the processing

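Of 560 alternative values for the 40 log2FC of the 8 lncRNAs, 526 had the sign and DEG call of the reported value. A further 8 newly met the DEG criterion and 26 changed sign. Calls by adjusted P do not enter these counts. The adjusted P of Mirg in aged ICH vs. aged sham was under 0.05 in 9 of 13 alternatives. Of 140 alternative counts of calls, 124 were within 1.5 times the reported one. The rise of Gas5 at both ages and of Neat1 in young ICH had an adjusted P under 0.05 in each of the 13 alternatives.

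For aged sham vs. young sham, DESeq2 and the fit with no filter each gave 1 lncRNA with an adjusted P under 0.05 in place of 0. For young ICH, scaling by library size alone gave 4 in place of 2; it moved the median log2FC of all genes from 0.022 to 0.11. For aged ICH, the fit of the compared groups alone gave 1 in place of 2. Leaving out each sample gave 1 to 4 by adjusted P and 0 to 1 by the DEG criterion in aged ICH vs. aged sham, the highest without aged ICH 2, and 0 to 1 by the DEG criterion in aged ICH vs. young ICH and for the interaction.

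The sign changed in values near 0. Mirg in aged sham vs. young sham was -0.0085 with DESeq2, -0.0088 with RLE, -0.0034 with no filter and -0.0027 with the replicate block, and -0.052 to 0.085 without single samples. Rian was 0.049 and 0.047 in young ICH and 0.0011 and 0.00019 in aged ICH with library size alone and with limma on log2(FPKM + 1). Without single samples, Malat1 in young ICH ran from -0.041 to 0.15, and Miat from -0.22 to 0.0066 in aged sham vs. young sham and from -0.10 to 0.28 in aged ICH vs. young ICH. The interaction ran from -0.037 to 0.12 for Meg3, -0.061 to 0.021 for Rian and -0.125 to 0.057 for Snhg11. The cause was not tested.

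With striatal genes in place of neuronal genes as the reference, 0 lncRNAs did not overlap for aged sham vs. young sham, 1 for aged ICH vs. aged sham and 0 for aged ICH vs. young ICH, and Rian (-0.061), Mirg (-0.022) and Miat (-0.13) changed sign in aged sham vs. young sham. Relative to neuronal genes, leaving out single samples gave 4 to 7 without overlap for aged sham vs. young sham and 3 to 6 for aged ICH vs. young ICH. Miat then ran from -0.043 to 0.16 in the former and from -0.063 to 0.36 in the latter, and Rian from -0.093 to 0.105 in the latter. Ratios between lncRNAs were also taken without each sample, a step chosen after seeing the data. Where the compared groups did not overlap, leaving out 1 sample could not reverse the direction, so it was no check there. Where they overlapped, the direction could change. The aged ICH mean of Neat1 per 1000 Malat1 reads was 134 without aged ICH 1, against 141 in aged sham. Without aged ICH 3 it was 183, against 171 in young ICH. Mirg per 1000 Rian reads in aged sham was 40.07 without aged sham 2, against 40.22 in young sham.

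The replicate numbers did not pair the samples, with correlations of deviations from -0.454 to 0.235, and apart from the sign of Mirg the replicate block changed no call or sign of the 8. B830012L14Rik, H19 and most of the miRNA and snoRNA rows held few or no reads, and the reason was not tested. With 3 pools a group, exact tests could not reach 0.05.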
